A study of Homo sapiens with 4 samples.

Results

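The 8 genes described here are the SOX trio of cartilage transcription factor genes, SOX5, SOX6 and SOX9, and 5 genes of the cartilage matrix and its sulfation, ACAN, HAPLN1, MATN2, MATN3 and CHST11. They were selected on the differences between shGREM1 and shControl in these same counts, and were taken by symbol from a table of read counts for 58735 genes, and each symbol matched 1 gene. Counts came from RNA-seq of U2OS, a long-established line of human osteosarcoma cells, in 2 libraries of control cells, labelled shControl, and 2 libraries labelled shGREM1, in which the labels name a knockdown of GREM1, the gene for the secreted BMP antagonist gremlin 1. The labels do not give the sequences of the hairpins, the delivery, the time after knockdown or whether each library is a culture of its own, so the spread that p-values rest on may be technical. GREM1 itself had counts of 2 and 0 in the control libraries and of 1 and 1 in the shGREM1 libraries. The knockdown could therefore not be checked, and no difference below can be tied to GREM1.

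SOX9 is the transcription factor that commits skeletal progenitors to the cartilage lineage and drives the genes of the cartilage matrix. SOX5 and SOX6 are closely related to each other, lack a transactivation domain of their own and increase the action of SOX9 on cartilage genes. Among the targets are ACAN, which encodes aggrecan, the large chondroitin sulfate proteoglycan of cartilage, and HAPLN1, whose link protein holds aggrecan on hyaluronan. Matrilins, encoded by MATN2 and MATN3, are adaptor proteins that connect collagens and proteoglycans, and MATN3 is the more restricted to cartilage. CHST11 encodes a Golgi enzyme that adds sulfate to chondroitin chains. In bone, the tissue of origin of osteosarcoma, osteoblasts arise from progenitors that also express SOX9 during development.

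SOX proteins bind short sequences around a core that can be written ACAAT. The bases just before RefSeq starts of these genes were therefore searched for ACAAT on both strands. RefSeq promoters (GRCh38.p14) were found for 6 of the 8 genes, SOX5, SOX6, ACAN, HAPLN1, MATN3 and CHST11. Shown are the SOX5 and SOX6 stretches, which hold the core, and those of ACAN and CHST11, which do not. They are cut to the part before the RefSeq start that lies outside every annotated exon of the gene, and capitals mark ACAAT or its reverse complement ATTGT.
SOX5, chr12:24562545-24562741, minus strand: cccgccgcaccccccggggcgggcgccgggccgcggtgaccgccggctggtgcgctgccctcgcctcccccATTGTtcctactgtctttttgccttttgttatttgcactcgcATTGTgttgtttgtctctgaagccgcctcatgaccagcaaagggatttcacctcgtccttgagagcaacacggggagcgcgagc
SOX6, chr11:16738644-16738727, minus strand: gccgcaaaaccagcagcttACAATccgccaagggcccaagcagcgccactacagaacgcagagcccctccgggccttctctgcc
ACAN, chr15:88803186-88803435, plus strand: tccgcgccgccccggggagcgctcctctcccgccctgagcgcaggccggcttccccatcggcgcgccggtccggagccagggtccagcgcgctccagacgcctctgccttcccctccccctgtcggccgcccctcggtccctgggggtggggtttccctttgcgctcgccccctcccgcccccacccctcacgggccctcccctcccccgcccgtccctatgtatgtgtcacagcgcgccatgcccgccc
CHST11, chr12:104456698-104456915, plus strand: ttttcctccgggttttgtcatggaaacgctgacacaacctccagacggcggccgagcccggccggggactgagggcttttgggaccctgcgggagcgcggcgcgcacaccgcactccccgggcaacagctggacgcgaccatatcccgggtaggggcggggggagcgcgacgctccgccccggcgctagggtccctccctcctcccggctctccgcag
In the full 250 bases before the start, SOX5 held the core at 2 positions, 179 and 137 bases before the start. The most upstream of the 5 SOX6 starts held it at 2 positions, 231 and 55 bases before the start, of which the second lies in the part not shown. The other SOX6 starts, which lie inside the annotated gene, each held it at least 1 time, in windows with a GC content of 27.2% to 40.8%. ACAN, HAPLN1, MATN3 and CHST11 held it at 0 positions in this window. The windows of CHST11 and of the most upstream SOX6 start lie inside the annotated gene, and all 250 bases of the HAPLN1 window are annotated exon. Of 34941 promoters of the same length, 24.7% held the core and 6.28% held it 2 or more times. A match is therefore a description of the letters and not a binding site. The GC content of the window was 65.6% for SOX5, 58.8% for the most upstream SOX6 start, 77.2% for ACAN and 73.2% for CHST11, against a median of 58.0% over all promoters.

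The 8 loci differ widely in size. SOX5 (ENSG00000134532, chromosome 12, 23529500 to 24562544, minus strand, GRCh38) spans 1030 kb and has 22 annotated transcripts in GENCODE 29. SOX6 (ENSG00000110693, chromosome 11, 15966449 to 16739591, minus strand) spans 773 kb. SOX9 (ENSG00000125398, chromosome 17, 72121020 to 72126420, plus strand) spans 5.4 kb and has 2 transcripts. ACAN (ENSG00000157766) lies on chromosome 15 from 88803442 to 88875354, HAPLN1 (ENSG00000145681) on chromosome 5 from 83637805 to 83721613, and CHST11 (ENSG00000171310) on chromosome 12 from 104455295 to 104762014. MATN2 (ENSG00000132561) lies on chromosome 8 and MATN3 (ENSG00000132031) on chromosome 2. The counts are totals per gene, so the isoforms of these genes were not told apart. Exons of SOX6 share 219 bases with C11orf58, a gene on the opposite strand with up to 2256 counts in a library, and because the strand setting of the counting is not given in the sources used here, some SOX6 reads could belong to C11orf58. RPL30, with up to 1597 counts, lies opposite MATN2 but shares 0 exon bases with it.

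All 8 genes were expressed well enough to be kept for testing, among 18442 genes. SOX9 was by far the most abundant. It had 213 and 252 CPM (read counts scaled for library size) in shControl, which placed it above 96.3% of the kept genes there. Per kilobase of annotated exon, its level in shControl was 54.2 and 64.1 CPM, against 6.73 and 6.79 for MATN3, 5.99 and 7.41 for CHST11 and 6.36 and 6.74 for HAPLN1. Those 3 matrix genes overlapped in their levels and could not be ordered. MATN2, at 1.57 and 2.01 CPM per kilobase, overlapped SOX6, at 1.29 and 1.72. ACAN and SOX5 were the lowest, at 1.00 to 1.13 and 0.999 to 1.12 CPM per kilobase, and overlapped too. In shGREM1, SOX9 stayed first, at 72.1 and 90.1 CPM per kilobase, and HAPLN1 stood alone in second place, at 12.2 and 13.0. MATN3 followed at 5.11 and 6.62 CPM per kilobase, while CHST11, SOX5, MATN2, SOX6 and ACAN each overlapped the next in order, between 1.53 and 3.27.

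**Figure D1:**
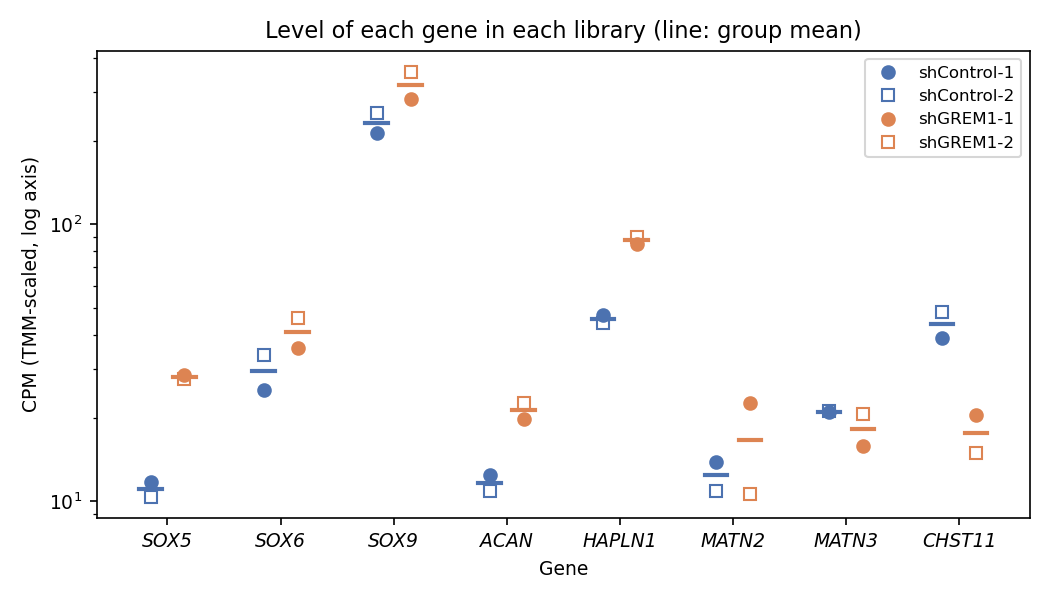
Level of each of the 8 genes in each library, in TMM-scaled CPM on a log axis, with a line at each group mean (n = 2 libraries per group). SOX9 lies at 213 CPM or more in every library, the shGREM1 libraries of SOX5, ACAN and HAPLN1 lie well above shControl, those of CHST11 lie below, and the shGREM1 libraries of MATN2 lie on either side of shControl.

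The question asked by the design is which transcripts differ between the cells named as knockdown and control. SOX5 was 2.55-fold, HAPLN1 1.92-fold and ACAN 1.83-fold higher in shGREM1, SOX6 and SOX9 were 1.39-fold and 1.37-fold higher, and CHST11 was 2.46-fold lower. Because the genes were selected on this comparison, the differences are given as a description, with no test. All 3 SOX genes were higher in shGREM1 in every library. Of the 5 matrix and sulfation genes, ACAN and HAPLN1 were higher in both shGREM1 libraries, CHST11 and MATN3 were lower in both, and MATN2 overlapped. In bulk RNA, a change in the number of cells that express a gene and a change in RNA per cell cannot be told apart.

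SOX5, a partner of SOX9, was counted 180 and 161 times in shControl and 468 and 446 times in shGREM1. In CPM these were 11.7 and 10.4 against 28.5 and 27.7, a 2.55-fold difference (log2 fold change 1.35 ± 0.16, SE). The shGREM1 libraries were nearly equal to each other and far above both controls, and among the 8 genes SOX5 had the largest log2 fold change. SOX6, the other partner, was counted 390 and 520 times in shControl and 589 and 738 times in shGREM1. Its CPM values of 25.3 and 33.7 against 35.9 and 45.9 gave a log2 fold change of 0.47 ± 0.16 (SE). The higher control and the lower shGREM1 library almost met, so the groups were separate by less than the spread within either of them.

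For SOX9, the lead factor of the trio, counts were 3290 and 3891 in the controls and 4650 and 5702 in the shGREM1 libraries. In CPM these were 213 and 252 against 284 and 355, a 1.37-fold difference (log2 fold change 0.46 ± 0.13, SE). The groups did not overlap, but the second library was the higher one in each. SOX9-AS1, a non-coding gene on the opposite strand that overlaps SOX9 in position but shares 0 exon bases with it, had counts of 28 and 57 against 80 and 93.

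Within a library, the ratio of 2 genes does not depend on library scaling. SOX9 counts were 18.3 and 24.2 times those of SOX5 in shControl and 9.94 and 12.8 times in shGREM1. The SOX9 to SOX6 ratio, at 8.44 and 7.48 in shControl and 7.89 and 7.73 in shGREM1, overlapped between the groups. SOX6 went from 2.17 and 3.23 times the counts of SOX5 in shControl to 1.26 and 1.65 times in shGREM1. Per kilobase of exon, SOX6 was above SOX5 in both controls, at 1.15 and 1.72 times, and below it in both shGREM1 libraries, at 0.669 and 0.88 times. Among the trio, the share of SOX5 was thus higher in both shGREM1 libraries than in both controls.

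For ACAN, the aggrecan gene, counts were 191 and 169 in the controls and 327 and 365 in the shGREM1 libraries. In CPM these were 12.4 and 10.9 against 19.9 and 22.7, a 1.83-fold difference (log2 fold change 0.87 ± 0.17, SE). Both shGREM1 libraries lay clearly above both controls. HAPLN1, the gene for the link protein that anchors aggrecan, was counted 724 and 683 times in shControl and 1393 and 1451 times in shGREM1. Its CPM values of 46.9 and 44.2 against 85.0 and 90.2 gave a 1.92-fold difference (log2 fold change 0.94 ± 0.11, SE). The libraries of each group lay close together for HAPLN1, at a log2 difference of 0.0836 in shControl and 0.0864 in shGREM1. The ratio of HAPLN1 to ACAN counts was 3.79 and 4.04 in shControl and 4.26 and 3.98 in shGREM1, so the proportion of link protein to aggrecan transcripts overlapped between the groups while both levels were higher in shGREM1.

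**Figure D2:**
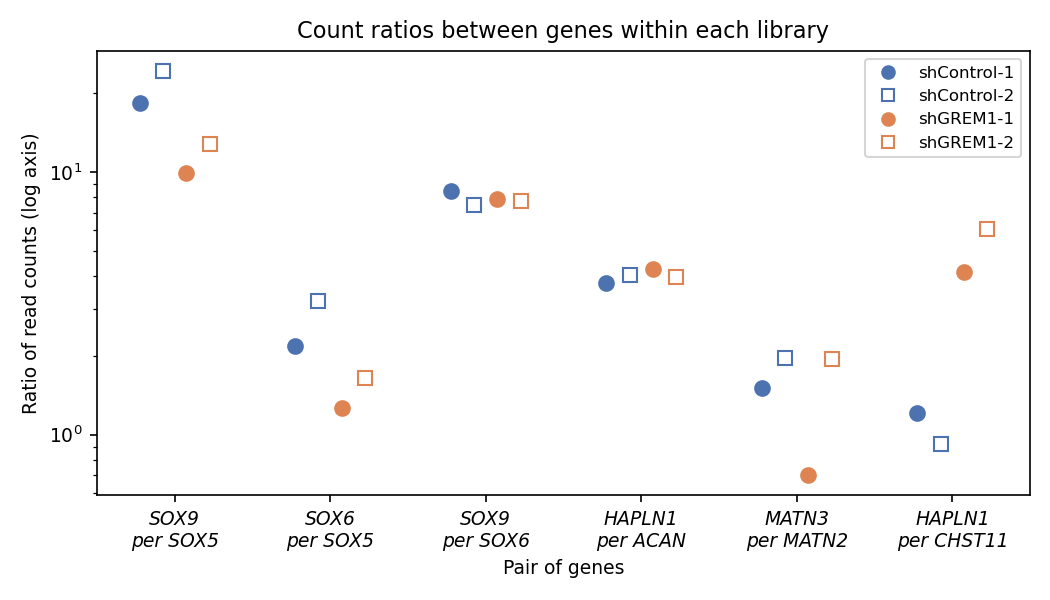
Ratio of read counts between pairs of the genes within each library, on a log axis, with shControl in blue and shGREM1 in orange. The SOX9 per SOX6 and HAPLN1 per ACAN ratios overlap between the groups, the ratios to SOX5 are lower in both shGREM1 libraries, and HAPLN1 per CHST11 goes from 1.21 and 0.919 in shControl to 4.15 and 6.07 in shGREM1.

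The matrilin genes showed no common direction. MATN2 was counted 215 and 168 times in shControl and 372 and 171 times in shGREM1, or 13.9 and 10.9 against 22.7 and 10.6 CPM. The first shGREM1 library was 2.13 times the second, which lay below both controls, so the groups overlapped. This log2 difference of 1.08 between the shGREM1 libraries was larger than that of 95.7% of the kept genes. The log2 fold change of 0.43 ± 0.38 (SE) turned to -0.22 without shGREM1-1 and went to 0.87 without shGREM1-2. MATN3 was counted 324 and 327 times in shControl and 261 and 332 times in shGREM1, or 21.0 and 21.2 against 15.9 and 20.6 CPM (log2 fold change -0.21 ± 0.16, SE). The second shGREM1 library almost reached the controls, and without shGREM1-1 the log2 fold change was -0.03.

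CHST11, the chondroitin sulfotransferase gene, went the opposite way from ACAN and HAPLN1. Its counts were 600 and 743 in the controls and 336 and 239 in the shGREM1 libraries. In CPM these were 38.9 and 48.1 against 20.5 and 14.9, so that shControl was 2.46-fold above shGREM1 (log2 fold change -1.30 ± 0.17, SE). The highest shGREM1 library lay far below the lowest control. Counts of HAPLN1 and CHST11 were similar in shControl, with ratios of 1.21 and 0.919, and in shGREM1 HAPLN1 had 4.15 and 6.07 times the counts of CHST11.

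**Figure D3:**
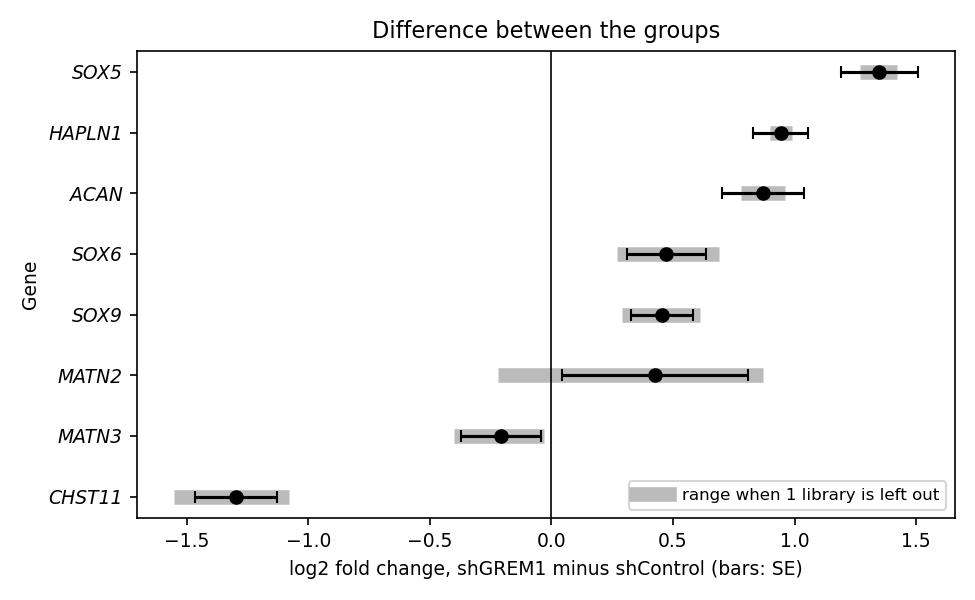
Log2 fold change of each of the 8 genes, shGREM1 minus shControl, with its SE as bars and in grey the range when 1 library is left out. SOX5, HAPLN1, ACAN, SOX6 and SOX9 stay above 0 and CHST11 and MATN3 below it in all 4 fits that leave out a library, and MATN2 crosses 0.

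In the fit across all genes (edgeR quasi-likelihood test, Benjamini-Hochberg adjusted p under 0.05), SOX5, SOX9, ACAN and HAPLN1 were past the threshold as higher and CHST11 as lower, and SOX6, MATN2 and MATN3 were not past it. These 5 of 8 stand beside 7.69% of all kept genes, with 3.57% higher and 4.12% lower. Groups that did not overlap in CPM were found for 7 of the 8 genes, 5 with shGREM1 above and 2 below, beside 53.6% of all kept genes, 27.0% above and 26.6% below. Since the genes were selected on these differences, nothing is read from these shares. The median log2 fold change was 0.464 over the 8 genes and 0.0049 over all kept genes. SOX9 was not past the threshold without shControl-1 (log2 fold change 0.333) or without shGREM1-2 (0.287). With the replicate number as a block SOX6 passed (log2 fold change 0.476), but the labels state no pairing, so nothing is read from that call. Without a count filter SOX6 passed the threshold too (0.463). SOX6 also passed it without shControl-2 (0.69) and without shGREM1-1 (0.638), and MATN2 passed it without shGREM1-2. Fits with a lone library take the spread from the other group, so calls gained there are not evidence of a change.

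**Figure D4:**
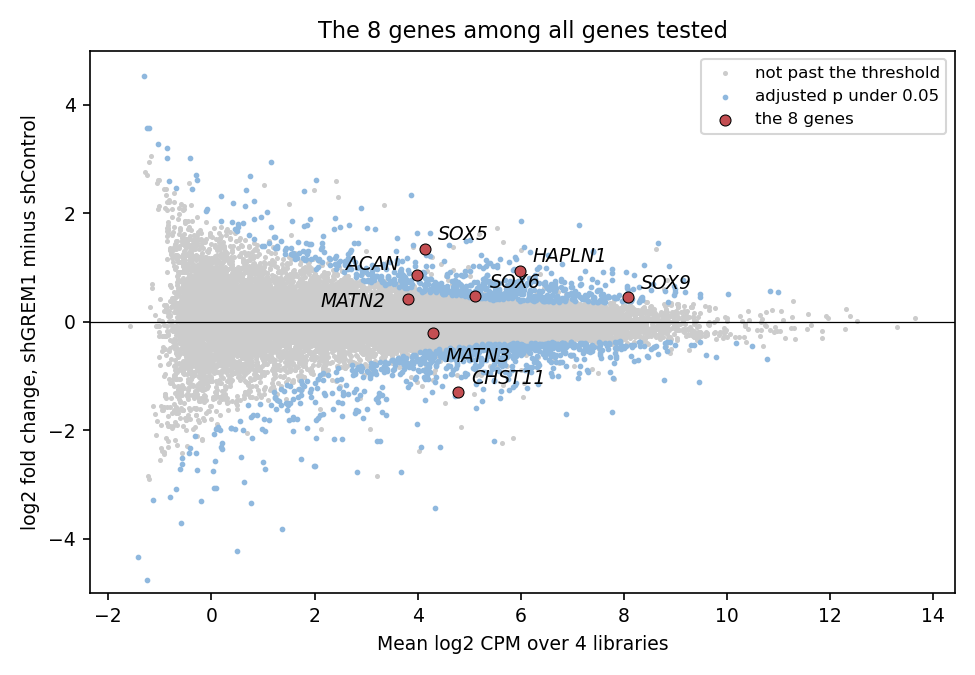
Log2 fold change, shGREM1 minus shControl, against mean log2 CPM for all 18442 genes tested, with the 8 genes in red and 1 gene outside the plotted range. SOX5, ACAN, HAPLN1 and SOX9 lie above 0 and past the threshold, and CHST11 lies below 0 and past it. Some genes that are not past the threshold, in grey, lie further from 0 than these.

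Each SOX gene was compared with 10266 protein-coding genes whose mean over the libraries was 10 CPM or more, by the Euclidean distance between log2 CPM profiles over the 4 libraries, each centred on its mean. The closest to SOX5 were TPM4 (114, 100, 278 and 255 CPM in shControl-1, shControl-2, shGREM1-1 and shGREM1-2; distance 0.0648) and ALPP (distance 0.111), which has near-identical paralogs and is uncertain. The closest to SOX6 were USP27X (0.0634) and DENND1B (0.072), and the closest to SOX9 were PM20D2 (0.0361) and TCP11L2 (0.0629). TCP11L2 shares 220 exon bases with the abundant CKAP4 on the opposite strand. With only 4 libraries, many genes lie close to any profile.

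Several defining genes of cartilage were at or near 0 counts. COL2A1, for the main collagen of cartilage, had counts of 6 and 2 in the controls against 16 and 13, COL9A1 had 0 and 0 against 3 and 3, and COMP had 0 in every library. SNORC, a cartilage proteoglycan gene, had counts of 20 and 27 against 38 and 39. COL10A1 lay the other way, with counts of 5 and 10 against 1 and 3. COL10A1 and CNMD were below 1 CPM in every library. COL2A1 (edgeR adjusted p = 0.153) and SNORC (edgeR adjusted p = 0.368) did not pass. COL9A1, COL10A1, COMP and CNMD were too low to be kept. Of 9 osteoblast lineage markers, 6 were kept, with a summed level of 1530 to 1570 CPM in shControl and 2160 to 2200 CPM in shGREM1, nearly all from COL1A1 and SPARC. COL1A1, SPP1 and SPARC rose, SP7, IBSP and BGLAP were too low to be kept and RUNX2 (log2 fold change 0.18; edgeR adjusted p = 0.447) and COL1A2 (0.96; edgeR adjusted p = 0.35) did not pass. ALPL, for alkaline phosphatase, lay the other way, at 13.5 and 8.68 CPM against 3.90 and 7.34 (log2 fold change -0.98; edgeR adjusted p = 0.0888). It passed as lower without a count filter (edgeR adjusted p = 0.00113) and with the replicate block (edgeR adjusted p = 0.00114). The labels state no pairing, so nothing is read from the block call. ALPL also passed without shControl-2 and without shGREM1-2, but calls gained with a lone library in a group are not evidence of a change. Of 9 blood, endothelial and epithelial markers, summed at 23.3 and 26.3 CPM in shControl and 26.3 and 32.7 in shGREM1, EPCAM, an epithelial adhesion gene, rose (log2 fold change 0.99; edgeR adjusted p = 0.0123), 5 did not pass and PTPRC, CD3E and HBB were not kept, with HBB at 0. Without shControl-1, COL1A1 (edgeR adjusted p = 0.0996), SPARC (0.165) and EPCAM (0.0912) did not pass, and without shControl-2 COL1A1 (0.166), SPARC (0.126) and SPP1 (0.102) did not. Of the 6 kept osteoblast markers 3 were called higher, and of the 6 kept markers of other cells 1 was. Among all kept genes, 3.57% were called higher and 4.12% lower, and nothing is read from counts this small. The part of these markers in the results was not tested.

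Of the other SOX genes, none passed edgeR's test, beside 3.57% higher and 4.12% lower among all kept genes, so that a count of 0 among so few genes is near the background. Of 13 listed genes, 10 were kept, and 0 rose and 0 fell by edgeR's test or by DESeq2. DESeq2 gave no adjusted p for some of the kept genes at low counts, so it could not call those. At an unadjusted p under 0.05 there were 2 higher and 1 lower of the 10 kept genes, beside 2050 higher and 2226 lower of all 18442. Their median log2 fold change was -0.034, beside 0.0049 for all kept genes. SOX4, from another subgroup than the trio, was the most abundant, at 279 and 346 CPM in shControl and 263 and 276 in shGREM1 (log2 fold change -0.21 ± 0.12, SE; edgeR adjusted p = 0.303). SOX12 had 124 and 116 against 139 and 144 CPM (0.24 ± 0.11; edgeR adjusted p = 0.179). SOX13, the third member of the SOX5 and SOX6 subgroup, had 28.9 and 30.6 against 26.0 and 30.8 CPM (edgeR adjusted p = 0.829), and SOX8, a close relative of SOX9, had 19.8 and 28.9 against 13.1 and 19.9 CPM (edgeR adjusted p = 0.195). The groups overlapped for SOX13 and SOX8, which were named after their values were seen. SOX8 passed as lower without a count filter (edgeR adjusted p = 0.0131) and with the replicate block (edgeR adjusted p = 0.0106). The labels state no pairing, so nothing is read from the block call.

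Of 30 other cartilage matrix genes, 18 were kept, 0 rose, 1 fell and 17 did not pass, with a median log2 fold change of 0.185. This count is near the background of 7.69% of all kept genes called, with 3.57% higher and 4.12% lower. COL9A2, for a chain of type IX collagen, fell from 105 and 92.2 CPM in shControl to 61.7 and 66.7 in shGREM1 (log2 fold change -0.62 ± 0.11, SE; edgeR adjusted p = 0.00382). COL9A3, for a partner chain, was below 1 CPM in every library. COL11A1, for a chain of type XI collagen and the most abundant gene of the list, had 152 and 144 against 222 and 169 CPM and did not pass (log2 fold change 0.40 ± 0.13, SE; edgeR adjusted p = 0.0689). The labels state no pairing, so nothing is read from the replicate block, with which COL11A1 passed (edgeR adjusted p = 0.0113). COL11A1 also passed under upper-quartile scaling (edgeR adjusted p = 0.0479) and without a count filter (0.0121). It also passed without shGREM1-2, but a call gained with a lone library in a group is not evidence of a change. For 0 rises, the count at an unadjusted p under 0.05 was 3 and DESeq2 also gave 0. DESeq2 gave no adjusted p for several of these genes at low counts, so it could not call them. HAPLN3, the most abundant relative of HAPLN1, had 63.0 and 51.8 against 61.5 and 73.0 CPM, with groups that overlapped (edgeR adjusted p = 0.319), and VCAN, a relative of ACAN, stayed at or below 1.10 CPM. COL9A3, HAPLN3 and VCAN were named after their values were seen.

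Of 26 genes of chondroitin sulfate synthesis, the pathway in which CHST11 acts, 25 were kept, 2 rose, 1 fell and 22 did not pass, with a median log2 fold change of -0.141. Among all kept genes, 3.57% were called higher and 4.12% lower, so nothing is read from a count this small. CHST14, for the sulfotransferase that acts on dermatan sulfate, rose from 39.6 and 38.3 CPM in shControl to 96.6 and 81.2 in shGREM1 (log2 fold change 1.19 ± 0.12, SE; edgeR adjusted p = 3.9e-05). SLC26A2, a sulfate transporter needed for cartilage sulfation, rose from 55.3 and 55.5 to 79.8 and 104 CPM (0.73 ± 0.13; edgeR adjusted p = 0.00326). SLC26A2 shares 246 exon bases with TIGD6 on the opposite strand, which had at most 85 counts. B3GAT3, which completes the linker that joins the chain to its core protein, fell from 61.1 and 63.2 to 42.1 and 42.8 CPM (-0.55 ± 0.11; edgeR adjusted p = 0.00893). The sulfotransferase genes CHST3 (92.8 and 87.3 against 108 and 93.3 CPM; edgeR adjusted p = 0.435) and CHST12 (111 and 97.2 against 97.4 and 90.5 CPM; edgeR adjusted p = 0.461) did not pass, and were named after their values were seen because they act beside CHST11.

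Of 22 regulators of cartilage formation, 17 were kept, 2 rose, 0 fell and 15 did not pass, with a median log2 fold change of 0.18. This small count stands beside 3.57% called higher and 4.12% lower among all kept genes, and nothing is read from it. ARID5B, a cofactor of SOX9 in mouse chondrocytes, rose from 75.2 and 76.2 to 97.5 and 102 CPM (log2 fold change 0.39 ± 0.11, SE; edgeR adjusted p = 0.0353). BARX2, a homeobox gene, rose from 5.18 and 3.76 to 7.14 and 10.4 CPM (0.97 ± 0.27; edgeR adjusted p = 0.0393). ARID5B did not pass without shControl-1 (edgeR adjusted p = 0.194), shControl-2 (0.139) or shGREM1-2 (0.054). BARX2 did not pass without shControl-2 (edgeR adjusted p = 0.206), without shGREM1-2 (0.184) or with DESeq2 (0.0662). For the 0 falls, 3 genes were lower at an unadjusted p under 0.05 and DESeq2 also gave 0. DESeq2 gave no adjusted p for some of the kept regulators at low counts, so it could not call those.

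Of 9 listed genes for proteases that cleave aggrecan or other cartilage matrix, which include the inhibitor TIMP3, 7 were kept, 0 rose, 2 fell and 5 did not pass, with a median log2 fold change of -0.673. That median is the value of ADAMTS1, named only as the middle gene. Its counts were 12 and 17 in shControl and 6 and 13 in shGREM1, so the groups overlapped (edgeR adjusted p = 0.563). The 2 falls among few genes stand beside 4.12% called lower among all kept genes. HTRA1, a secreted serine protease, fell from 52.6 and 64.5 to 30.2 and 34.0 CPM (log2 fold change -0.87 ± 0.13, SE; edgeR adjusted p = 0.00109). MMP13, the collagenase that cuts type II collagen, fell from 2.66 and 2.27 to 0.549 and 0.684 CPM (-1.99 ± 0.47; edgeR adjusted p = 0.0181), but did not pass without shControl-1 (edgeR adjusted p = 0.126). MMP3, named after its values were seen, had 24.0 and 30.6 CPM in shControl and 6.10 and 1.43 in shGREM1. It missed the threshold (log2 fold change -2.85 ± 0.73, SE; edgeR adjusted p = 0.165), while DESeq2 called it lower (adjusted p = 0.0361). The replicate block also called MMP3 lower, but the labels state no pairing, so nothing is read from that call. The shGREM1 libraries of MMP3 differed, and its log2 fold change was -4.25 without shGREM1-1 and -2.16 without shGREM1-2. Both fits were past the threshold, but each leaves out the spread between these libraries, so this is not evidence of a change. The aggrecanase genes ADAMTS4 and ADAMTS5 were too low to be kept. For the 0 rises, 0 genes were higher at an unadjusted p under 0.05 and DESeq2 gave 0. DESeq2 gave no adjusted p for ADAMTS1, so it could not call that gene.

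**Figure D5:**
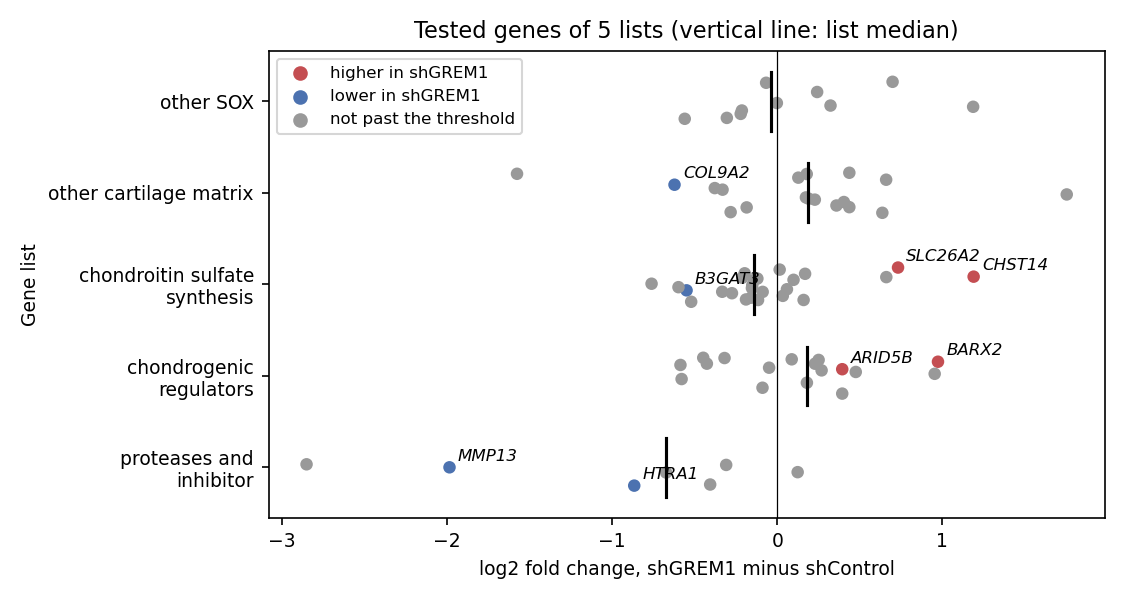
Log2 fold change, shGREM1 minus shControl, of the tested genes of 5 gene lists around the 8 genes, with a vertical line at each list median; genes past an adjusted p of 0.05 are coloured and named. The other SOX genes centre near 0 with 0 coloured points. The protease list has its median furthest below 0, at -0.673, which is the value of ADAMTS1, a gene of low counts whose groups overlapped.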

How the data were processed

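The authors deposited 1 table of raw counts. Per the submitters' processing notes, the tools were DESeq2, StringTie 1.3.3b and HISAT2 2.0.5 and the build was mouse mm10, but all 58735 genes matched human GENCODE 29 (GRCh38) in identifier, start, end and strand. Neither a counting program nor its strand setting is named there. The authors' deposited gene lengths equal the summed exon length of each of the 8 genes. The columns NC and SHG1 were read as shControl and shGREM1 from the abbreviation. Library totals were 15492826 to 16353015 counts.

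Counts were tested with edgeR 4.0.16 in R 4.3.3 (filterByExpr with a minimum count of 10 and total of 15, TMM scaling, robust quasi-likelihood fit with group alone), which kept 18442 genes. CPM values use TMM-scaled library sizes, log2 CPM a prior count of 2, and SE was derived from the F statistic. The script was tested on simulated data. The genes and lists were selected with earlier results of these data known. Named were the 8 genes and each called gene of a list, or the 2 most expressed where fewer than 2 were called. The 2 profiles nearest to each SOX gene were named too. Other names are marked in the text, are markers, or are genes that overlap a named gene in position. GREM1, TIMP3, ADAMTS4 and ADAMTS5 were named outside this rule. The result of 1 listed marker of other cells is not reported here. Alternatives were relative log expression (RLE) and upper-quartile scaling, no count filter, DESeq2 1.42.0, a replicate block and leaving out each library. Figures used matplotlib 3.10.9.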

Additional observations from a re-analysis of the deposited data

How the results depend on the processing

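Of the 8 genes, all kept their direction under the 9 alternatives run, except MATN2 without shGREM1-1. When single libraries were left out, the log2 fold change ran from 1.27 to 1.42 for SOX5, from 0.27 to 0.69 for SOX6, from 0.29 to 0.61 for SOX9, from 0.78 to 0.96 for ACAN, from 0.90 to 0.99 for HAPLN1, from -0.22 to 0.87 for MATN2, from -0.40 to -0.03 for MATN3 and from -1.55 to -1.08 for CHST11. Over all genes, 659 were higher and 759 lower, against 793 and 631 under upper-quartile scaling, 1142 lower without a count filter, and 1101 higher and 1273 lower with the replicate block. Leaving out a library gave from 266 to 998 higher and from 382 to 1112 lower genes, with 266 and 382 without shControl-1, 389 and 466 without shControl-2, and 998 higher without shGREM1-1. The labels do not say whether same-numbered libraries are paired, and their deviations had a correlation of -0.007, so the block is only an alternative. With it, SOX6 was past the threshold, 1 other SOX gene fell, 2 other cartilage matrix genes rose and 1 regulator fell. Without a count filter the same counts were 1, 2 and 1. Under upper-quartile scaling 1 cartilage matrix gene rose, and with DESeq2 1 regulator rose. Leaving out a library gave 0 to 1 rises and 0 to 1 falls of other SOX genes, 0 to 1 rises of cartilage matrix genes, 1 to 2 falls of chondroitin sulfate genes, 0 to 3 rises and 0 to 1 falls of regulators, and 1 to 4 falls of proteases. Fits with a lone library take the spread from the other group, so calls gained there are not evidence of a change. The causes of these shifts were not tested. With 2 libraries per group small differences are often missed. On counts simulated for the 18442 genes of this comparison, 27.4% of 62 genes changed 1.5-fold and 63.6% of 66 changed 2-fold were recovered. Fewer genes were changed there than were called in the data, and the simulated spread followed expression level alone. These shares may therefore differ from the recovery in the data.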
